A study of Homo sapiens with 6 samples.

Results

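ES2, a human ovarian cancer line, was sequenced after 7 days in culture with G and R together (GR), with G alone (G), with R alone (R) and with neither (Control), 1 library in each group. The genes described here are those whose level in GR departed from the sum of the separate changes. For every gene with at least 1 FPKM (fragments per kilobase of transcript, scaled to depth) in any of these 4 libraries, log2(FPKM + 1) was taken and the departure D was computed as GR minus G minus R plus Control. D is 0 where the log2 change with R is the same with and without G. A D of 1 means that the ratio of GR to G was 2-fold higher than the ratio of R to Control, and a D of -1 that it was 2-fold lower. Of the 33706 genes in the table, 12893 passed the filter, and 1142 of them had a D of at least 1 or at most -1. D was at least 1 in 780 genes (6.05% of those that passed) and at most -1 in 362 genes (2.81%). These 2 thresholds define the members, so the counts are a description. With 1 library a group no difference has a replicate check, and none was tested.

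All cultures were grown in 5A medium with fetal bovine serum. The study is about T-oligo and RHPS4. The letter G is described in the labels as G4, and the labels do not spell out R. A pair of further libraries, TR and T, holds R together with T and T alone, and shares no library with D. Every title names ES2, while the source names of GR, G, R and TR name SKOV3, another ovarian cancer line. Control and T are ES2 by both labels. A line difference between Control and the other 3 libraries of D cannot be told apart from a departure by the labels. ERBB2, the receptor tyrosine kinase gene amplified in SKOV3 cells, stood at 0.721 FPKM in GR, 0.444 FPKM in G, 0.151 FPKM in R and 0.233 FPKM in Control. The epithelial adhesion genes EPCAM and CDH1 were at most 0.0563 and 0.0211 FPKM in these 4 libraries, and the keratin gene KRT19 at most 0.0865 FPKM. Other epithelial keratin genes were expressed. KRT7 stood at 216 FPKM in GR, 147 FPKM in G, 110 FPKM in R and 93.2 FPKM in Control. KRT18 stood at 249, 120, 121 and 89.9 FPKM in the same order, and KRT8 at 33.0, 23.0, 27.5 and 15.2 FPKM. VIM, the mesenchymal filament gene, stood at 1052.5 FPKM in GR, 929 FPKM in G, 1919 FPKM in R and 1456 FPKM in Control. Leukocyte markers were low apart from CD68, a lysosomal gene with expression in many cell types. Of 9 leukocyte markers in the table, 1 reached 1 FPKM in each of the 4 libraries, and PTPRC, the pan-leukocyte surface gene, was listed at 0 in all 4. Their summed level was 19.4 FPKM in GR, 39.0 FPKM in G, 44.7 FPKM in R and 55.3 FPKM in Control, nearly all of it CD68.

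The 4 libraries held 78683454 to 83976498 counts. Mitochondrial genes took 0.893% of counts in GR (95% Wilson interval 0.891 to 0.895), 6.17% in G (6.16 to 6.17), 0.351% in R (0.350 to 0.353) and 6.98% in Control (6.97 to 6.98). Intervals cover counting error only, since the libraries carry no molecular identifiers. The median D over all genes that passed was 0.11, so the thresholds are not symmetric around the bulk of the genes. With that median subtracted, 569 genes lay at or above 1 and 479 at or below -1. The share of members above was 68.3% as computed and 54.3% with the median subtracted.

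T-oligos are short DNAs with the sequence of the telomere 3′ overhang, and guanine-rich strands of this kind can fold into G-quadruplexes. RHPS4 is a pentacyclic acridinium salt that binds G-quadruplexes and, as a cation, can also gather in mitochondria. Telomere ligands of this kind are known for displacing telomere-binding proteins and for DNA damage responses at chromosome ends. Genes that respond within minutes to stress, such as FOS, DUSP1 and the heat shock gene HSPA1A, are short genes, several of them with rapidly decaying mRNAs, and chemokine genes such as CXCL1 are targets of the transcription factor NF-kB.

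The promoters of HSPA1A, DUSP1 and CXCL1 are shown because these genes are examples of a level high in R alone and of a level high in G alone, and because a motif named below was found in each. The window of FOS, another gene high in R alone, was searched for 1 fixed form each of the serum response, cyclic AMP response and AP-1 motifs. None of these exact forms was found, and the window is not shown. Variant forms and bases further upstream were not searched, so the search cannot tell whether the FOS promoter holds such elements. All these windows are RefSeq windows on GRCh38.p14, from 250 bases before to 50 bases after the gene start. Those shown are written 5′ to 3′ on the gene's strand. Capitals mark a heat shock element GAANNTTC and CCAAT boxes in HSPA1A, a cyclic AMP response element TGACGTCA in DUSP1 and an NF-kB motif (GGGA, any base, then TTTCC) in CXCL1. The small nucleolar RNA SNORD14E, the gene with the lowest D among those named, is shown whole from its GENCODE v29 coordinates, with the C box TGATGA and the D box CTGA in capitals.
HSPA1A, chr6:31815293-31815592, plus strand: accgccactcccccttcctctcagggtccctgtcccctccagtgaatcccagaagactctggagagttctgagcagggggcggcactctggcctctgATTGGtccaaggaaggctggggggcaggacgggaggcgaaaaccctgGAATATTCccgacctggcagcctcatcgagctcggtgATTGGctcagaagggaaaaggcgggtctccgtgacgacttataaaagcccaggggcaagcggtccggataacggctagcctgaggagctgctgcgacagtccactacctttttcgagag
DUSP1, chr5:172771146-172771445, minus strand: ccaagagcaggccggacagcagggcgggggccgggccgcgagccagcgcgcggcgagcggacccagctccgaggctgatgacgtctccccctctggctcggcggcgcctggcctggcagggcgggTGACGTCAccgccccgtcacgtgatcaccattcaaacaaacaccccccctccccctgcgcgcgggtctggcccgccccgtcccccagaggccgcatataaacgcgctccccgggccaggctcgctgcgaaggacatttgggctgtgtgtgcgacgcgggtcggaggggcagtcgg
CXCL1, chr4:73869143-73869442, plus strand: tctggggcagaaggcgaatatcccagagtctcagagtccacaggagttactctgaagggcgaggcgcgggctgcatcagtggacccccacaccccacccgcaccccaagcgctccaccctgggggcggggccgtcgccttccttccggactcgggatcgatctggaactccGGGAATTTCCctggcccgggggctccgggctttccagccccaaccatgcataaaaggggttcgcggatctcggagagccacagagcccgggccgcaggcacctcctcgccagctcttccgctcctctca
SNORD14E, chr11:123058077-123058161, minus strand: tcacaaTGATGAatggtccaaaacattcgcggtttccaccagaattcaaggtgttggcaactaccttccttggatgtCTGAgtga

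The members fall into a few forms by which library stood apart. Of the 780 genes above, 290 (37.2%) had R at least 2-fold below each of the other 3 libraries, and 17 had GR at least 2-fold above each of them. Control stood apart on the high side in 12 and G on the low side in 4. Of the 362 genes below, R alone stood at least 2-fold above the other 3 in 73 (20.2%), G alone in 39 (10.8%), and Control alone stood at least 2-fold below in 34 (9.39%). GR was the library apart on the low side in 3. In most members no single library was apart by 2-fold, 456 of those above and 209 of those below. The background for single ratios was that GR was at least 2-fold higher than G in 1.34% of the genes that passed and lower in 2.13%, and R higher than Control in 2.75% and lower in 6.8%. G was at least 2-fold higher than Control in 3.37% and lower in 0.465%, and GR higher than R in 6.38% and lower in 1.12%. Since the rule used these ratios, nothing is read from the members' own shares.

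**Figure D1:**
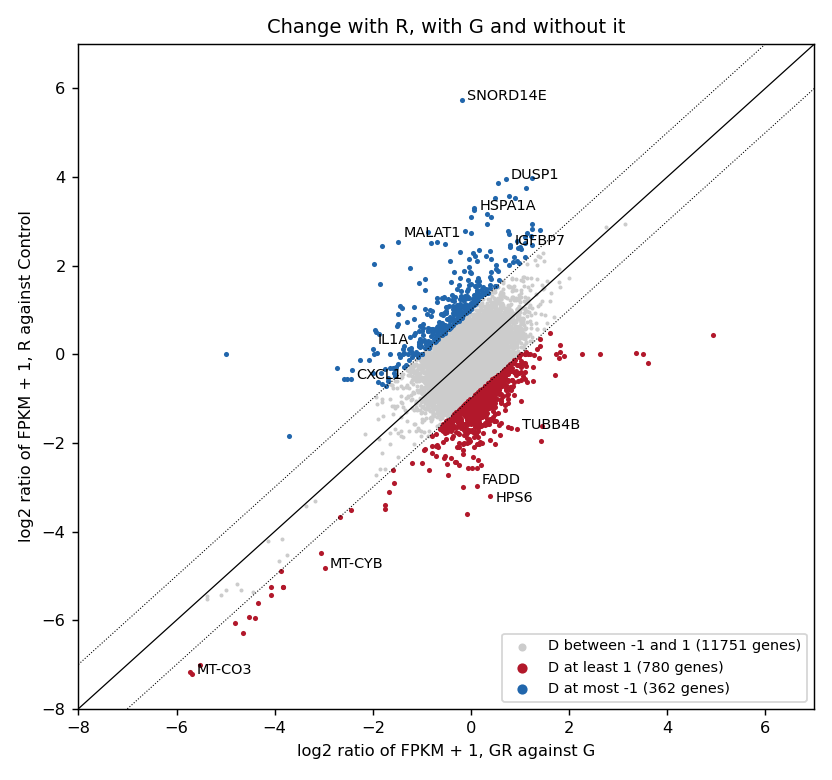
Each point is 1 of the 12893 genes, with the log2 ratio of GR to G on the horizontal axis and the log2 ratio of R to Control on the vertical axis, both of FPKM + 1. The solid line is a D of 0 and the dotted lines a D of 1 and -1. Members above are red and members below blue. Mitochondrial genes lie at the lower left, where both ratios are low.

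Several stress genes with a D of at most -1 were high in R alone. HSPA1A, which encodes the inducible heat shock protein 70 (ENSG00000204389, chromosome 6, 31815543 to 31817946, plus strand, a single exon), stood at 36.0 FPKM in GR and 34.2 FPKM in G, against 350 FPKM in R and 35.8 FPKM in Control. The 3 libraries GR, G and Control lay close together and R lay apart. D was -3.18. HSPA1A stood at 267 FPKM in TR, against 15.7 FPKM in T, so the log2 ratio with R was 0.07 with G, 4.0 with T and 3.25 with neither. Its near-identical neighbour HSPA1B gave a D of -3.24, and how the authors divided reads between these 2 genes is not stated in the labels. Of 24 cytosolic heat shock genes that passed, these were the only 2 with a D of at most -1, and the median D of the list was 0.06. Over all genes 2.81% had a D of at most -1, and the median was 0.11. HSPA2, a heat shock protein 70 gene best known from the testis, had a D of 1.05, with 3.61 FPKM in GR, 4.16 in G, 0.811 in R and 3.20 in Control.

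Among immediate early genes, DUSP1, a phosphatase that inactivates MAP kinases (ENSG00000120129, chromosome 5, 172768096 to 172771195, minus strand, 4 exons), stood at 130 FPKM in GR and 78.9 FPKM in G, against 1133 FPKM in R and 72.0 FPKM in Control. FOS, a subunit of the AP-1 transcription factor, stood at 2.28 FPKM in GR and 1.35 FPKM in G, against 25.8 FPKM in R and 1.33 FPKM in Control. ZFP36, which encodes a protein that speeds the decay of AU-rich mRNAs, stood at 6.75 FPKM in GR and 2.28 FPKM in G, against 27.5 FPKM in R and 2.70 FPKM in Control. In all 3 genes R was the highest of the 4 libraries, and GR was above G by less than R was above Control. Their D values were -3.25, -3.04 and -1.70. With T the ratio of TR to T was 2.73 for DUSP1, 3.79 for FOS and 3.53 for ZFP36 on the log2 scale. For FOS and HSPA1A the departure of TR from T plus R, which shares R and Control with D, was 0.27 and 0.75, against a D of -3.04 and -3.18. For DUSP1 it was -1.23. Over all members the departure of TR mostly had the sign of D. It was above 0 in 718 of the 780 genes above (92.1%) and below 0 in 300 of the 362 below (82.9%). Over all genes these shares were 50.7% and 49.2%. Its median was 0.69 above and -0.65 below, against 0.01 over all genes. Both departures hold R and Control, so nothing is read from this likeness, nor is the form of FOS and HSPA1A that of the members at large.

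Of 32 immediate early and AP-1 genes that passed, 7 had a D of at most -1 and 3 a D of at least 1, with a median of -0.50, against 2.81% and 6.05% of all genes and a median of 0.11. The remaining members below were GADD45B and IER3, stress-induced genes, NR4A2, an orphan nuclear receptor gene, and DUSP6, a phosphatase of ERK kinases, at -1.45, -1.43, -1.15 and -1.02. EGR1, an immediate early zinc finger factor, went the other way with a D of 1.77. It stood at 14.9 FPKM in GR and 21.9 FPKM in G, against 3.63 FPKM in R and 21.8 FPKM in Control, and at 6.49 FPKM in TR, against 26.4 FPKM in T. The immediate early genes therefore did not share 1 pattern: R was the highest library for FOS and DUSP1 and the lowest for EGR1. CCN2, a secreted matrix protein gene, and KLF2, a zinc finger factor, had D values of 1.06 and 1.09.

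Clock and stress-response genes with R alone highest had the same form. NR1D1, the clock repressor REV-ERB alpha, stood at 6.47 FPKM in GR and 2.38 FPKM in G, against 27.7 FPKM in R and 3.31 FPKM in Control. PER1, a clock inhibitor, stood at 8.99 FPKM in GR and 4.20 FPKM in G, against 29.2 FPKM in R and 4.17 FPKM in Control. Both were higher with R in each background, by 1.14 and 0.94 on the log2 scale with G and by 2.74 and 2.55 without it. D was -1.59 and -1.61. NFIL3 and BHLHE40, repressors that act on clock genes, had D values of -1.42 and -1.11, and BHLHE41, the paralog of BHLHE40, had 1.15. Of 14 clock genes that passed, 4 were below and 1 above, against 2.81% and 6.05% of all genes. SLC2A3, the glucose transporter GLUT3, stood at 12.2 FPKM in GR and 4.55 FPKM in G, against 29.6 FPKM in R and 3.31 FPKM in Control (D -1.58). It and BHLHE40 were the members among 32 hypoxia and glycolysis genes, none of which had a D of at least 1, and the median of that list was 0.22.

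The unfolded protein and integrated stress genes were split. Of 42 that passed, 8 had a D of at most -1, 2 a D of at least 1, and the median was -0.23. Over all genes these shares were 2.81% and 6.05%, and the median 0.11. DDIT4, an inhibitor of mTORC1, stood at 27.8 FPKM in GR and 22 FPKM in G, against 92.7 FPKM in R and 9.39 FPKM in Control (D -2.84). GDF15, a stress-induced cytokine, stood at 12.8 FPKM in GR and 7.11 FPKM in G, against 29.3 FPKM in R and 1.54 FPKM in Control (D -2.81). For both, Control was the lowest library and R the highest, and GR lay between. PPP1R15A, the regulatory subunit that restores translation by dephosphorylating eIF2 alpha, had a D of -1.54. HSP90B1 and HSPA5, chaperones of the endoplasmic reticulum, had D values of -1.67 and -1.48. HSP90B1 differed in form, since it stood at 42.1 FPKM in GR and 87.9 FPKM in G, against 79.8 FPKM in R and 51.4 FPKM in Control. TRIB3, a pseudokinase induced by ATF4, stood at 21.4 FPKM in GR and 23.8 FPKM in G, against 5.69 FPKM in R and 20.7 FPKM in Control (D 1.55). CHAC1, an ATF4 target that degrades glutathione, had a D of 1.15. Both were lower in TR than in T, by a log2 ratio of -2.62 for TRIB3 and -3.29 for CHAC1.

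**Figure D2:**
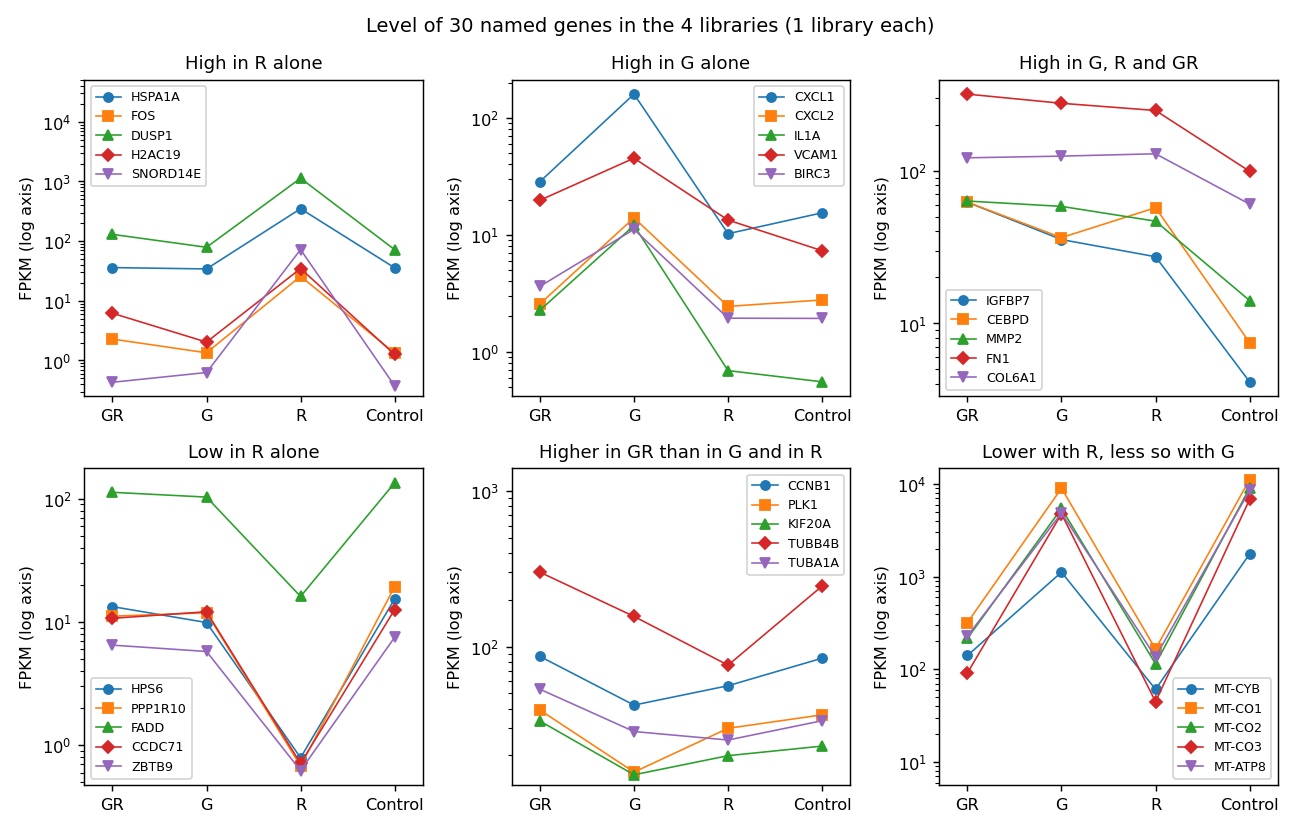
FPKM on a log axis in GR, G, R and Control, 1 library each, for 30 genes in 6 panels, with a line joining the values of each gene. HSPA1A, FOS and DUSP1 peak in R, CXCL1, CXCL2 and IL1A in G, and HPS6, PPP1R10 and FADD are lowest in R. IGFBP7 and CEBPD are lowest in Control.

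Most members of the chemokine, interleukin and growth factor list were highest in G alone. CXCL1, a neutrophil-attracting chemokine (ENSG00000163739, chromosome 4, 73869393 to 73871308, plus strand, 4 exons), stood at 28.5 FPKM in GR and 160 FPKM in G, against 10.2 FPKM in R and 15.4 FPKM in Control. IL1A, which encodes interleukin 1 alpha, stood at 2.26 FPKM in GR and 12 FPKM in G, against 0.688 FPKM in R and 0.552 FPKM in Control. G was the highest library for both, GR was second, and R and Control were the lowest. Their D values were -1.90 and -2.12. CXCL8, the chemokine interleukin 8, stood at 74.8 FPKM in GR and 279 FPKM in G, against 40.3 FPKM in R and 63.1 FPKM in Control (D -1.25). CSF2, the growth factor GM-CSF, stood at 0.511 FPKM in GR and 4.95 FPKM in G, and was listed at 0 in R and Control. Of 28 chemokine, interleukin and growth factor genes that passed, 16 had a D of at most -1 and none a D of at least 1, against 2.81% and 6.05% of all genes. Of these 16, G was the highest of the 4 libraries in 14, and R in GDF15 and HBEGF, a growth factor of the EGF family. The median D of the list was -1.19. With the other scalings 17 or 18 lay at or below -1, with the GC and length trend removed 14, and with a pseudocount of 5 there were 8.

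The NF-kB genes had the same form in part. VCAM1, an adhesion molecule, stood at 19.8 FPKM in GR and 45.3 FPKM in G, against 13.4 FPKM in R and 7.31 FPKM in Control (D -1.95). BIRC3, an inhibitor of apoptosis, stood at 3.62 FPKM in GR and 11.1 FPKM in G, against 1.93 FPKM in each of R and Control (D -1.40). TNFAIP3, a feedback inhibitor of NF-kB, was nearly level in the treated libraries, with 8.86 FPKM in GR, 11.9 in G, 7.76 in R and 2.46 in Control (D -1.73). NFKBIZ, an NF-kB cofactor, SOD2, the mitochondrial superoxide dismutase, and NFKBIA, the NF-kB inhibitor, had D values of -1.66, -1.27 and -1.15. These 6 were the members below among 24 NF-kB genes that passed, with none above and a median of -0.12. Over all genes 2.81% were below and 6.05% above. Of 26 interferon-stimulated genes 2 were below, IFI6 at -1.02 and IFI44 at -1.01, and none above. Among the 59 genes in which G was at least 2-fold above Control and GR at least 2-fold below G, the median log2 ratio of TR to T was 0.00, against -0.15 over all genes.

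This NF-kB motif, on either strand, was found in 5 of the 23 promoter windows matched for these 59 genes, against 56 of 9362 (0.598%) for all genes that passed. The motif was chosen after the values were seen. Heat shock elements GAANNTTC lay in 5 of the 38 windows matched for genes with R alone high (13.2%). They lay in 5 of the 23 for genes with G alone high (21.7%) and in 11.95% of all windows below, against 4.63% of all. The windows with R alone high and with G alone high are too few to rank their shares. Of all genes that passed, 72.6% had a window, as had 71.4% of the members above and 43.9% of those below. Motifs of 4 GGG runs that can form a G-quadruplex were found in 37.0% of windows above, 25.8% below and 33.7% of all. With fewer than 80% of each set matched, these shares are void as a check of the members against other genes.

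In another form, G and R were each well above Control and GR was near both, so that Control was the library apart. CEBPD, a transcription factor of the acute phase response, stood at 62.2 FPKM in GR and 36.5 FPKM in G, against 57.2 FPKM in R and 7.50 FPKM in Control (D -2.02). HES1, a repressor downstream of Notch, stood at 7.73 FPKM in GR and 4.09 FPKM in G, against 11.5 FPKM in R and 0.901 FPKM in Control (D -1.94). In both, Control was the lowest of the 4 libraries. IGFBP7, a secreted insulin-like growth factor binding protein, was also lowest in Control but highest in GR, with 62.1 FPKM in GR and 35.4 FPKM in G, against 27.3 FPKM in R and 4.15 FPKM in Control (D -1.67). Some matrix genes had the form with Control apart. FN1, fibronectin, stood at 317 FPKM in GR and 276 FPKM in G, against 248 FPKM in R and 99.1 FPKM in Control. MMP2, a gelatinase, stood at 63.3 FPKM in GR and 58.4 FPKM in G, against 46.7 FPKM in R and 14.1 FPKM in Control. D was -1.11 for FN1 and -1.54 for MMP2. COL6A1, a collagen VI chain, and FBN1, fibrillin, had D values of -1.12 and -1.11.

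Counting the genes with G and R each at least 2-fold above Control and GR within 2-fold of both gave 39 genes, 31 of them protein coding. Their median log2 ratios were 1.46 for G to Control, 1.44 for R to Control, 0.05 for GR to G and 1.04 for TR to T. TR and T do not enter D. By source name TR is SKOV3 and T is ES2, so this ratio crosses the same conflict of labels as R to Control, while GR and G carry the same source name. CEBPD stood at 101 FPKM in TR, against 11.1 FPKM in T, and FN1 at 267 FPKM in TR, against 124 FPKM in T. Over the mesenchymal list of 33 genes 3 were below and 2 above, against 2.81% and 6.05% of all genes, with a median of -0.22. COL1A1, a collagen I chain, was above with a D of 1.22, from 71.1 FPKM in GR and 136 FPKM in G, against 18.6 FPKM in R and 85.7 FPKM in Control. Over 18 matrix proteases and inhibitors 3 were below and none above, MMP2, the stromelysin gene MMP3 at -1.24 and the metalloprotease gene ADAMTS1 at -1.20.

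RNAs that mostly lack a poly(A) tail made up much of the lowest end. The libraries were made from oligo(dT)-selected RNA, so such RNAs are read only in part and at low counts. SNORD14E, whose sequence is shown above, had 4 counts in GR and 5 in G, against 546 in R and 3 in Control (0.432, 0.628, 72.2 and 0.376 FPKM). Its D was -5.92, and it had 219 counts in TR, against 2 in T. It lies inside HSPA8, the constitutive heat shock protein 70 gene, on the same strand. HSPA8 itself stood at 246 FPKM in GR and 215 FPKM in G, against 333 FPKM in R and 376 FPKM in Control (D 0.37), so the host gene did not share the high level in R. Of 55 small nucleolar RNAs that passed, 28 (50.9%) had a D of at most -1 and 1 a D of at least 1, with a median of -1.05. Over all genes these shares were 2.81% and 6.05%, and the median 0.11. Of the 29 that are members, 28 lie inside another gene on the same strand. This share was not computed for the small nucleolar RNAs that are not members, so it is not read as a trait of the members. Whether the members' reads come from the small RNA or from the host transcript cannot be told apart here.

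Other RNAs of this kind lay on the same side. RN7SK, the 7SK RNA that holds the elongation factor P-TEFb inactive, stood at 4.15 FPKM in GR and 6.45 FPKM in G, against 15.3 FPKM in R and 1.92 FPKM in Control (D -3.01). All 4 genes of 5.8S ribosomal RNA that passed were below, with a median of -2.42. RN7SL1, an RNA of the signal recognition particle, stood apart in G instead, with 2.26 FPKM in GR and 20.6 FPKM in G, against 3.72 FPKM in R and 4.88 FPKM in Control (D -2.41). Replication-dependent histone genes, whose mRNAs end in a stem-loop in place of a poly(A) tail, had 13 of 55 genes in the table passing, 6 of them below and none above. The paralogs H2AC19 and H2AC18 were at -2.74 and -2.63, and H2AC19 stood at 6.19 FPKM in GR and 2.03 FPKM in G, against 34.8 FPKM in R and 1.26 FPKM in Control. Of 22 host genes of small nucleolar RNAs 5 were below, SNHG3, SNHG12, SNHG5, SNHG1 and ZFAS1 at -1.40 to -1.01, and none above. Of 50 cytosolic ribosomal protein genes, with poly(A) tails, none was a member, and their median D was -0.33. Of 60 microRNA genes 18 were below and 6 above. The counts of members here stand against 2.81% below and 6.05% above over all genes. The part of poly(A) selection in these values was not tested.

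The 3 named genes with the highest D were low in R alone. HPS6, a subunit of a complex that builds lysosome-related organelles (ENSG00000166189, chromosome 10, 102065349 to 102068036, plus strand, a single exon), stood at 13.3 FPKM in GR and 9.89 FPKM in G, against 0.793 FPKM in R and 15.4 FPKM in Control. PPP1R10, a nuclear targeting subunit of protein phosphatase 1 (ENSG00000204569, chromosome 6, 30600413 to 30617244, minus strand, 20 exons), stood at 11.1 FPKM in GR and 11.9 FPKM in G, against 0.680 FPKM in R and 19.3 FPKM in Control. FADD, the adaptor between death receptors and caspase 8 (ENSG00000168040, chromosome 11, 70203296 to 70207390, plus strand, 2 exons), stood at 112 FPKM in GR and 103 FPKM in G, against 16.1 FPKM in R and 134 FPKM in Control. R was the lowest of the 4 libraries for all 3, and GR lay near G. Their D values were 3.58, 3.51 and 3.11. On counts scaled by TMM, where the pseudocount weighs less, the 95% counting interval of D was 4.34 to 4.79 for HPS6, 4.42 to 4.77 for PPP1R10 and 2.99 to 3.13 for FADD. In TR, against T, the values were 2.14 and 9.40 FPKM for HPS6, 1.51 and 10.1 FPKM for PPP1R10, and 35.6 and 102 FPKM for FADD. TR was thus lower than T for all 3, with a log2 ratio of -1.73 for HPS6, while the ratio of GR to G for HPS6 was 0.39.

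The other named genes at this end had the same form with a few exceptions. CCDC71, a coiled-coil gene, ZBTB9, a zinc finger gene, DDX28, a helicase of mitochondrial ribosome assembly, and PHETA2, an endosomal protein gene, had D values of 2.82, 2.53, 2.36 and 2.31. CHTF8, a subunit of an alternative clamp loader, and GPR39, a zinc-sensing receptor, had 2.52 and 2.49, and SH3BP5L and the antisense RNA HSD17B1-AS1 had 2.70 and 2.68. AGAP2-AS1, a long non-coding RNA, was an exception, with 2.17 FPKM in GR and 2.13 FPKM in G, against 1.87 FPKM in R and 15.9 FPKM in Control (D 2.58). Control was the library apart there, and likewise for the ribosomal protein pseudogene RPS26P6 (D 2.41), whose reads may be shared with its parent gene. Whether reads were counted by strand is not stated in the labels, so levels of antisense RNAs are uncertain.

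Across the 333 genes with R at least 2-fold below Control and GR at least 2-fold above R, the median log2 ratio of R to Control was -1.40 and that of GR to G was 0.00. The median ratio of TR to T, which the rule did not use, was -0.82 against -0.15 over all genes. It was below 0 in 312 of the 333 (93.7%), against 58.3% of all genes. It was at or below -1 in 126 (37.8%), against 11% of all genes. The mirror group of 91 genes with R alone high had a median ratio of TR to T of 0.90. The ratio was above 0 in 80 of them (87.9%), against 41.6% of all genes, and at or above 1 in 40 (44.0%), against 5.72%. Over all members the median was -0.46 above and 0.32 below. These shares describe 1 further pair of libraries, whose source names differ in the same way as those of R and Control.

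**Figure D3:**
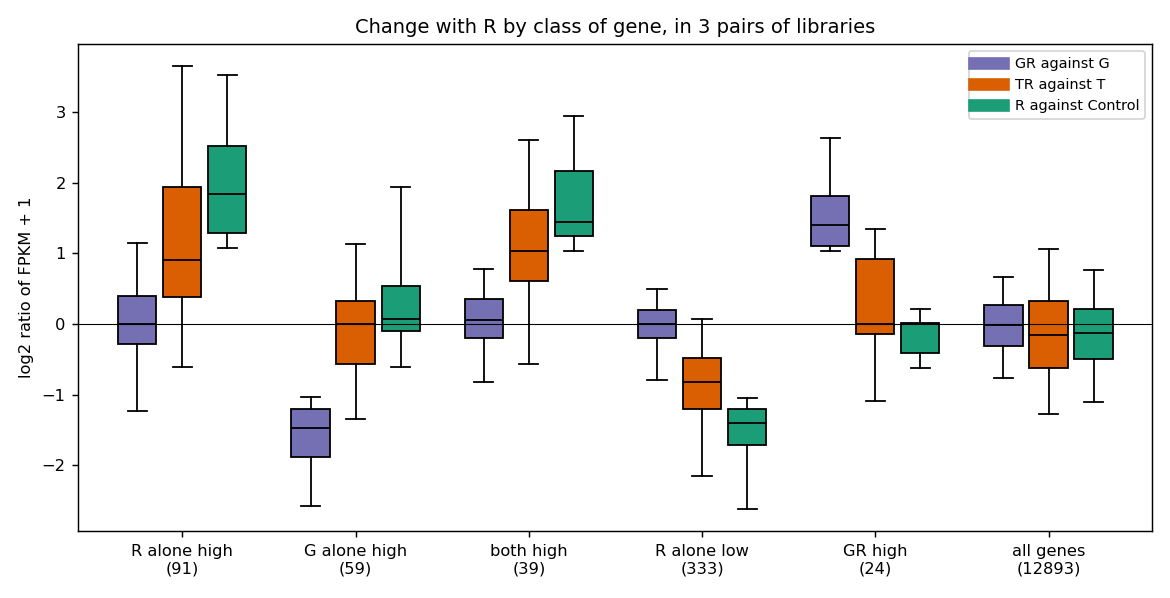
Log2 ratios of FPKM + 1 for GR to G, TR to T and R to Control, as boxes over genes of 5 classes of members and over all 12893 genes. Boxes span the quartiles with the median as a line, and whiskers reach the 5 and 95 percentiles. With R alone low, the medians are 0.00 for GR to G, -0.82 for TR to T and -1.40 for R to Control.

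Of 30 apoptosis genes that passed, 4 had a D of at least 1 and none a D of at most -1, against 6.05% and 2.81% of all genes, and the list's median was 0.05. CASP8, the initiator caspase that FADD recruits, stood at 3.41 FPKM in GR and 4.70 FPKM in G, against 0.924 FPKM in R and 4.79 FPKM in Control (D 1.22). BMF, a BH3-only activator of apoptosis, was highest in GR, with 4.86 FPKM, against 1.22 FPKM in G, 0.693 FPKM in R and 0.340 FPKM in Control (D 1.06). CASP6, an effector caspase, and TNFRSF10D, a decoy receptor of TRAIL, had D values of 1.02 and 1.01. The other death receptor genes of the list were not members, and TNFRSF10B had a D of 0.09. With the median of all genes subtracted 1 of them stayed at or above 1, and with a pseudocount of 5 none did.

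Mitotic genes lay above the rest of the genes as a list, with few past the threshold. Of 36 genes of G2 and mitosis, 4 had a D of at least 1 and none a D of at most -1, against 6.05% and 2.81% of all genes. The median was 0.44, against 0.11 over all genes. CCNB1, the mitotic cyclin, stood at 86.6 FPKM in GR and 42.1 FPKM in G, against 56.1 FPKM in R and 84.3 FPKM in Control. PLK1, a mitotic kinase, stood at 39.1 FPKM in GR and 15.6 FPKM in G, against 29.9 FPKM in R and 36.5 FPKM in Control. G and R were both below Control in these genes, and GR was close to Control. D was 1.60 for CCNB1, 1.55 for PLK1, 1.29 for KIF20A, a kinesin of cytokinesis, and 1.07 for AURKA, the spindle kinase. AURKA fell short of 1 with counts scaled by TMM, at 0.97. HJURP, the chaperone that loads the centromeric histone, stood at 40.1 FPKM in GR, against 18.2 FPKM in G, 18.4 FPKM in R and 27.5 FPKM in Control (D 1.66). CCNF, the cyclin of an SCF ubiquitin ligase, was lower in R than in Control by a log2 ratio of -1.64 and had a D of 2.39. In the list as a whole the median log2 ratio of TR to T was 1.38, that of GR to G 0.42 and that of R to Control 0.06.

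Tubulins, a list drawn up after their values were seen, also held members above. TUBB4B, a beta tubulin, stood at 301 FPKM in GR and 156 FPKM in G, against 76.1 FPKM in R and 245 FPKM in Control (D 2.62). TUBB6, TUBA1A and TUBA1C had D values of 2.15, 1.28 and 1.03. The log2 ratio of R to Control was -1.68 for TUBB4B and -2.01 for TUBB6, but -0.40 for TUBA1A and -0.20 for TUBA1C. The median of that ratio in the mitotic list was 0.06, so the form of TUBB4B and TUBB6 was not that of the mitotic list. Of 11 tubulin genes that passed 4 were above and none below, against 6.05% and 2.81% of all genes. Since the list was drawn up from the values, this count is only a description. Tubulin paralogs are alike in sequence, and how shared reads were counted is not stated in the labels. The S phase list did not follow: of 40 genes 1 was above, FEN1, the flap endonuclease, with 25.4 FPKM in GR and 37.9 FPKM in G, against 5.46 FPKM in R and 31.6 FPKM in Control (D 1.78). The list's median was 0.05, against 0.11 over all genes.

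Mitochondrially encoded mRNAs were far lower with R with and without G, and less so with G. MT-CO2, a subunit of cytochrome c oxidase, stood at 216 FPKM in GR and 5455 FPKM in G, against 115 FPKM in R and 9038 FPKM in Control. MT-CYB, cytochrome b of complex III, stood at 141 FPKM in GR and 1119 FPKM in G, against 60.9 FPKM in R and 1759 FPKM in Control. D was 1.64 for MT-CO2 and 1.85 for MT-CYB. Of the 13 mRNAs 11 had a D of at least 1, and the count was 11 under each of the 6 other settings run on the lists. The median log2 ratio was -4.34 for GR to G, -4.77 for TR to T and -5.61 for R to Control, and GR was above R by a median of 0.91. The 2 that were not members were MT-ND1 and MT-ND2, complex I subunits, with a lowest D of 0.13 in the list. Of 22 mitochondrial tRNA genes 12 were above and 1 below. Over all genes 6.05% were above and 2.81% below. None of 39 nuclear genes of the respiratory chain was a member, and their median was -0.01.

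**Figure D4:**
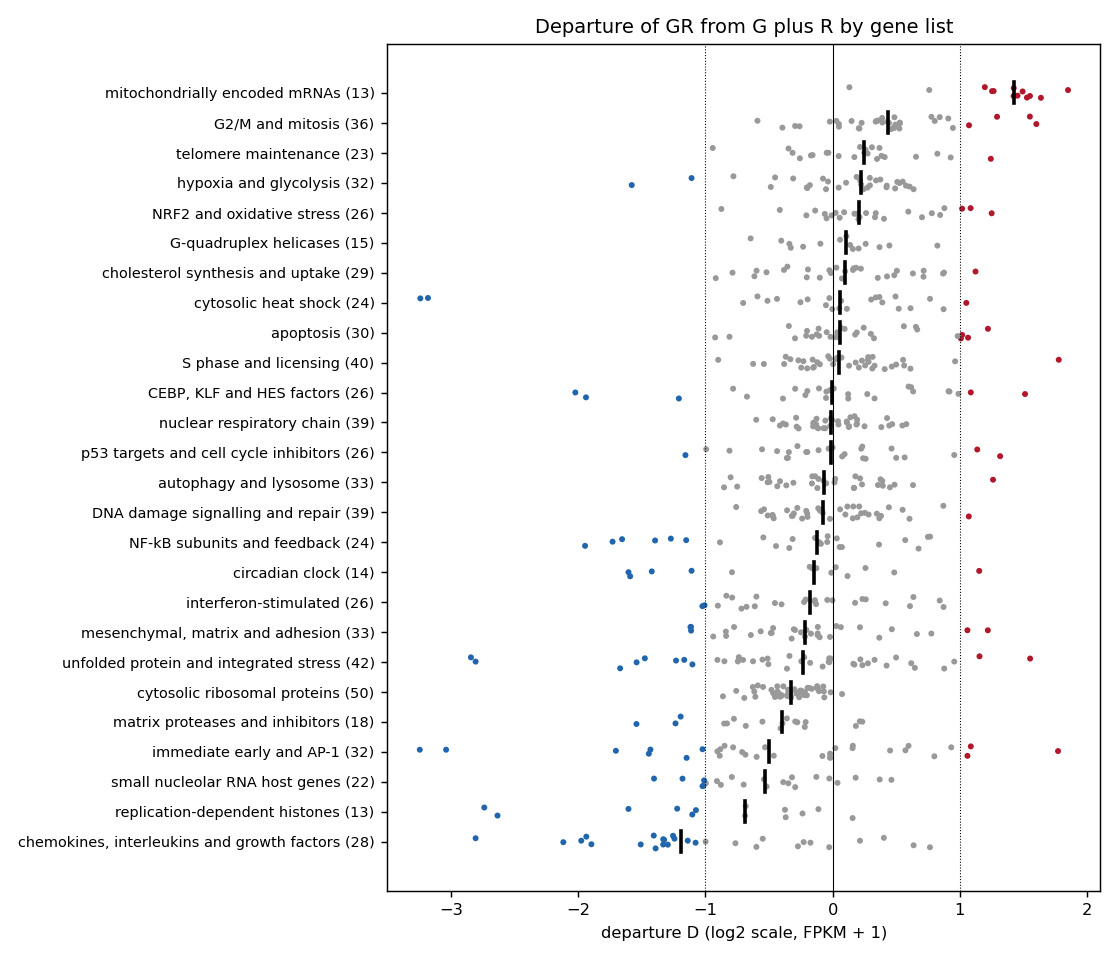
D of each gene that passed, by gene list, with the number of genes in brackets and the median as a black bar. Red points have a D of at least 1 and blue points a D of at most -1. The mitochondrially encoded mRNAs have the highest median, 1.42, and the chemokine list the lowest, -1.19.

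In the remaining lists the counts of members stand against 6.05% above and 2.81% below over all genes, and lists of this size are too short to tell such shares apart. Of 23 telomere maintenance genes 1 was above, WRAP53, which brings telomerase to Cajal bodies, at 1.24, with none below and a median of 0.25. The median was -0.07 with the GC and length trend removed. None of 15 G-quadruplex helicases was a member. Of 39 DNA damage genes 1 was above, the telomere nuclease gene DCLRE1B (Apollo) at 1.07. Of 26 p53 target and cell cycle inhibitor genes CDKN2C and PHLDA3 were above at 1.14 and 1.32, and GADD45A was below at -1.16. Among 26 NRF2 and oxidative stress genes 3 were above, the sulfiredoxin gene SRXN1 at 1.25, KEAP1, the NRF2 inhibitor, at 1.08, and the epoxide hydrolase gene EPHX1 at 1.02. Among 29 cholesterol genes 1 was above, NSDHL, an enzyme of the pathway, at 1.12, and among 33 autophagy and lysosome genes 1, the lipid transfer gene ATG2A, at 1.26. Of 26 CEBP, KLF and HES factors, CEBPD, HES1 and HES4 (-1.21) were below and KLF15 (1.51) and KLF2 above. Of 3 endothelial markers that passed 1 was above, CDH5, VE-cadherin, with 10.3 FPKM in GR, 15.0 in G, 5.75 in R and 19.2 in Control (D 1.08). The summed level of the 9 endothelial markers was 64.8 FPKM in GR, 65.6 FPKM in G, 63.5 FPKM in R and 69.9 FPKM in Control.

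The members differed from the rest of the genes in base composition and exon number, which the rule did not use. Protein-coding members above had a median GC content of 55.9% in the longest transcript, those below 44.6%, and all protein-coding genes that passed 48.0%. With the genes in 10 bins of equal size by GC content, 0.924% had a D of at least 1 in the lowest bin and 12.6% in the highest. The median D in these 2 bins was -0.18 and 0.38. The median log2 ratio of GR to G was -0.31 in the lowest bin and 0.31 in the highest, while that of R to Control was -0.13 and -0.10, and that of G to Control 0.30 and -0.11. The bins thus differed in the ratios of GR to G and of G to Control, and little in that of R to Control. They differed also in the ratio of TR to T, with a median of -0.64 in the lowest bin and 0.32 in the highest. Protein-coding genes with 1 exon were above in 22.3% of cases, those with 6 or more exons in 4.61%. With the genes in 4 bins by GC content, these shares were 27.7% and 9.29% in the highest bin and 10.5% and 0.670% in the lowest. With a smooth trend on GC content and length removed from D, 431 genes lay at or above 1 and 370 at or below -1, and 389 and 273 of these were members as first counted. The split between above and below was then 53.8% above, against 68.3%. GC content was not tested as a cause. Of the 101 named members, 99 had a GC value, and 75 of these stayed past 1 with the trend removed.

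**Figure D5:**
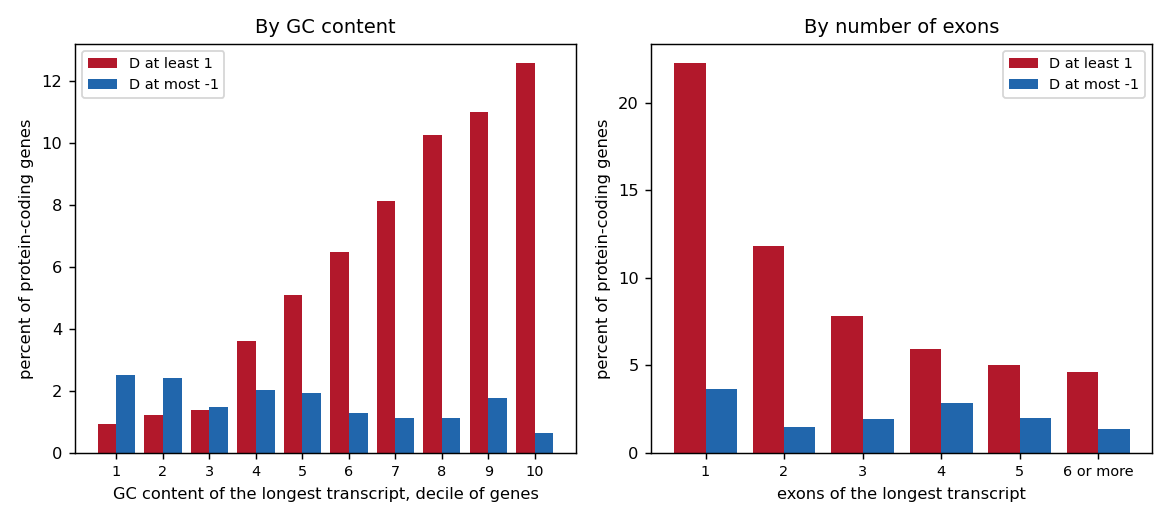
Percent of protein-coding genes with a D of at least 1 (red) and at most -1 (blue), in 10 bins of genes by GC content, low to high, and by number of exons of the longest transcript. The share above was 0.924% in the lowest bin and 12.6% in the highest, and 22.3% with 1 exon and 4.61% with 6 or more.

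Genes at the threshold show how little separates members from others. Just inside above were TPRG1L, PPP1R12C and C1orf216, and just outside CDPF1, MAGEA12 and TACC3, each with a D that rounds to 1.0. Just inside below were UACA at -1.0 and UPF3B and SRPX2 at -1.01, and just outside EREG and EPB41L4A-AS1 at -1.0 and PLK3 at -0.99. TACC3, a spindle protein, stood at 98.5 FPKM in GR and 58.4 FPKM in G, against 58.6 FPKM in R and 70.2 FPKM in Control. EREG, an EGF receptor ligand, stood at 14 FPKM in GR and 8.50 FPKM in G, against 16.8 FPKM in R and 4.66 FPKM in Control.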

How the data were processed

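RNA of 6 cultures, 1 library per group, was read as oligo(dT)-selected, strand-marked libraries, per the labels' protocols. The genome build and the roles of the tools listed in the submitters' processing notes (HISAT2 2.2.1, StringTie 2.1.6, cutadapt 1.9, edgeR, DESeq2) are not given there. The authors deposited a count and an FPKM per gene and library, and both were used as deposited. Coordinates are the table's. GENCODE v29 (GRCh38) holds 97.3% of the genes that passed, and the positions overlap for 99.9% of these. Of the members 401 (35.1%) overlap another gene on the same strand, against 30.3% of the genes that passed, and are uncertain, as are paralogs.

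D was computed on log2(FPKM + 1), which understates changes of low genes. Library totals ran from 73213048 to 83976498 counts. Counting intervals (95%) are of counts scaled by TMM and cover counting error only. Scalings were computed with edgeR 4.0.16 and DESeq2 1.42.0 in R 4.3.3. The step was tested on simulated counts of well-expressed genes with counting error only. Genes with few reads and spread between cultures were not covered. No column of sample values was left out.

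Named genes are the 15 highest and 15 lowest D among genes with a symbol of their own, at least 5 FPKM in a library and a D of at least 1 in size and of the same sign on counts scaled by TMM. Added to these are up to 4 members with the largest D in each of 29 lists, the line check genes and 3 genes on either side of each threshold. The members and lists were chosen with earlier results of these data known. CXCL1, CXCL8, SOD2, NFKBIA, GADD45B, IER3, NR4A2, DUSP6, CCN2, KLF2, PPP1R15A, HSPA5, CHAC1, ZFAS1, IGFBP7, HJURP, RN7SL1, MT-ND1, MT-ND2, CD68, HSPA8, the tubulins and the NF-kB and heat shock motifs were chosen after their values were seen. Motifs were searched on both strands of RefSeq promoters.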

Additional observations from a re-analysis of the deposited data

Results flagged for a closer look

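For 3 named genes the change with R was 1 or more on the log2 scale in opposite directions with and without G. The difference was not tested, since each ratio is of 1 library against 1 library. MALAT1, a nuclear long non-coding RNA, stood at 4.75 FPKM in GR and 15.0 FPKM in G, against 17.6 FPKM in R and 2.19 FPKM in Control. The log2 ratio was -1.48 for GR to G and 2.54 for R to Control, with a D of -4.02. Its ratio of TR to T was 0.05. MALAT1 overlaps another gene on the same strand.

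SENP3-EIF4A1, a readthrough gene, stood at 11.1 FPKM in GR and 41.8 FPKM in G, against 51.1 FPKM in R and 8.55 FPKM in Control. The log2 ratio was -1.82 for GR to G and 2.45 for R to Control, with a D of -4.27. SENP3, a SUMO protease gene that the readthrough transcript spans, had a D of 1.55, so the assignment of reads between both genes is uncertain. SNORD6, a small nucleolar RNA with few reads, stood at 1.46 FPKM in GR and 4.79 FPKM in G, against 8.97 FPKM in R and 1.60 FPKM in Control. The log2 ratio was -1.24 for GR to G and 1.94 for R to Control, with a D of -3.18. In all, 12 of the 12893 genes moved at least 2-fold in opposite directions, 3 of them with a D of at least 1 and 9 with a D of at most -1.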

How the results depend on the processing

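The counts of members depend on the pseudocount and the scaling. Against 780 genes above and 362 below, there were 1605 and 710 with a pseudocount of 0.1, and 168 and 110 with a pseudocount of 5. Counts scaled by TMM gave 1439 and 945, of which 752 and 359 were members as first counted, and counts scaled by median ratios gave 1366 and 1019, with 57.3% of both above. On these scales low genes are less damped. TMM moved D by -0.12 and the ratio of R to Control by 0.20 for every gene. With the GC and length trend removed 431 genes were above. The count below was 205 with at least 1 FPKM in all 4 libraries, 213 with at least 5 FPKM in any, and 235 with at least 50 counts in each library and a counting interval away from 0. It was 181 among protein-coding genes and 182 without overlap on the same strand, both chosen after seeing the data. Of the 101 named members 101 stayed past 1 with a pseudocount of 0.1, 96 with TMM, 94 with median ratios, 88 with the median subtracted and 63 with a pseudocount of 5, and none changed sign. No paired analysis was possible because each group has 1 library. For the same reason no library could be left out of D.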

Other observations

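KRT85, a hair keratin gene, had 3310 counts in GR and 1333 counts in G, against 0 counts in each of R and Control. It had 5076 counts in TR and 4067 counts in T. Its D was 1.10, and the size of D depends on the pseudocount because R and Control are at 0. Hair keratins are alike in sequence, and how shared reads were counted is not stated in the labels.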
